A study of Mus musculus with 49 samples.

Results

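Mouse hepatocytes kept as a monolayer for 4 days were compared with hepatocytes kept for 2 days under the same conditions, across all genes of a UMI count table. The comparison used 6 libraries, 3 at each time, of the 49 libraries in the series, and was fitted together with the rest of the hepatocyte time course (fresh hepatocytes and 3 h, 1, 2, 4, 7 and 14 days, 21 libraries in all). The members were taken by their labels, not by any measured value. All cells were isolated from the livers of 10-week-old male wild-type C57BL/6J mice by collagenase perfusion, separated from non-parenchymal cells by centrifugation, and plated on type I collagen in a progenitor medium with EGF at 20 ng per mL. The labels of both groups give the genotype as WT and name no agent beyond the culture itself, and the groups differ by the time in it. The study describes its experiments as repeated independently, but the labels and methods tie no library to an animal or a culture, so the p-values measure the spread between these libraries.

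Hepatocytes carry out most of the metabolic work of the liver and secrete most plasma proteins, and the genes for these products are driven by a network of lineage factors such as HNF4A. Adult hepatocytes rest in the intact liver. When plated with growth factors they flatten, enter the cell cycle and lose the expression of liver products, while genes of the bile duct lineage and of the cytoskeleton can be switched on.

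Between 2 and 4 days many genes for the secreted proteins and the detoxifying enzymes of the liver fell, and selected genes of bile duct and progenitor cells, of the cytoskeleton and of glycolysis rose. Of the DNA replication and mitotic genes, most of which had risen between 1 and 2 days, Pimreg alone passed the test between 2 and 4 days, while the D cyclin genes Ccnd1 and Ccnd2 rose in both steps. A gene was called when the false discovery rate (FDR) of edgeR's quasi-likelihood test, with Benjamini-Hochberg adjustment, was under 0.1 and the absolute log2 fold change was over 2, the thresholds of the study. Of 12443 genes tested, 135 were called higher at 4 days (1.08% of those tested) and 158 were called lower (1.27%). At any fold, 197 genes passed the FDR threshold as higher (1.58%) and 251 as lower (2.02%), and a gene described as having risen or fallen below passed that threshold. The median log2 fold change of all genes tested was 0.02. The numbers called depended on the libraries: without 2 d replicate 2 the test called 86 genes higher, and without 2 d replicate 1 it called 90 higher and 121 lower.

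**Figure D1:**
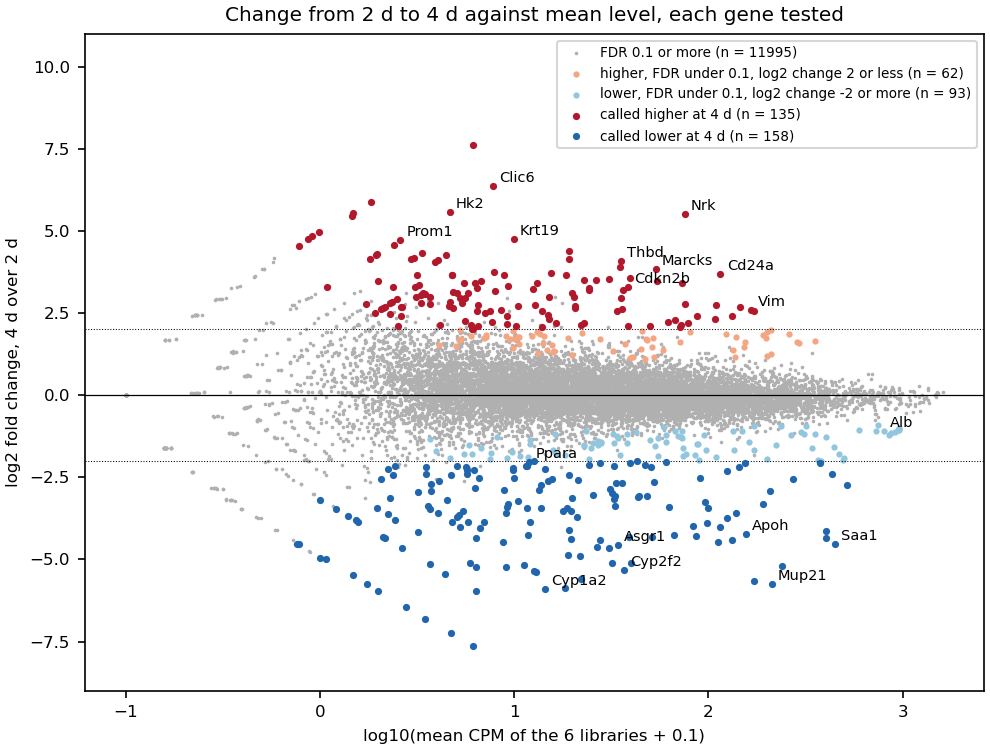
Change from 2 to 4 days against mean level. Each point is 1 of the 12443 genes tested, the x axis gives log10 of the mean level of the 6 libraries in CPM with 0.1 added, the y axis gives the fitted log2 fold change, and dotted lines mark -2 and 2. The 158 genes called lower and the 135 called higher lie beyond the dotted lines, and the diagonal rows at the left are genes with no or nearly no count in 1 group.

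The 6 libraries held between 1701461 and 2439334 counts and between 15783 and 16598 genes with a count. Mitochondrial transcripts took 1.39% to 2.01% of the counts. Levels are given below as CPM, the count of a gene per 1e+06 counts of its library after TMM scaling, and 3 counts in a library corresponded to between 1.03 and 1.47 CPM. Replicates correlated with Spearman's rho between 0.903 and 0.963 across genes over 6 pairs, and differed by more than sampling noise (a chi-square of 10.5 to 22.7 for each degree of freedom), so all were counted as separate libraries. Of the 135 genes called higher, 133 had all 3 libraries at 4 days above all 3 at 2 days, and 154 of the 158 called lower had the opposite order. The genes were called from these same libraries, so this order describes the calls and is not separate support for them.

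The labelled cell type was checked with 18 hepatocyte markers, whose summed level was 7543 to 8922 CPM at 2 days and 5173 to 7271 CPM at 4 days. Of the 18, 6 fell (Asgr1, Cyp2e1, Cyp3a11, F2, Alb and Serpina1c) and 12 did not pass. Both ranges of the sum were far above those of the Kupffer cell, endothelial, stellate cell and blood cell markers given next. The list of cholangiocyte and progenitor markers, described further below, came closer. It summed to between 715 and 1001 CPM at 2 days and between 1576 and 1748 CPM at 4 days. Serpina1c lost its call in 4 of the 6 fits without 1 library (FDR 0.110 to 0.215). The 16 Kupffer cell and macrophage markers summed to 156, 61.7 and 4.33 CPM in replicates 1, 2 and 3 at 2 days and to 96.5, 31.2 and 6.84 CPM at 4 days, and none of the 14 tested passed the test. The 16 endothelial markers summed to between 38.1 and 204 CPM at 2 days and between 34.7 and 112 CPM at 4 days, and the 18 stellate cell and fibroblast markers to between 49.3 and 80.0 CPM and between 58.6 and 118 CPM, and again none of the 15 and 10 tested passed. At an unadjusted p under 0.05 the numbers were 0 of the Kupffer cell, 3 of the endothelial (Lyve1, Stab2 and Stab1, all with negative log2 fold changes) and 0 of the stellate cell markers, and DESeq2 passed 0, 1 and 0. Of 14 lymphocyte and erythroid markers, 9 had no count in any of the 6 libraries. Alas2, which makes the first step of heme synthesis in red cell precursors, was the only one tested and fell from 7.04, 3.10 and 4.76 CPM to 0.362, 0 and 0 CPM. In bulk libraries, fewer cells of a type and less RNA per cell cannot be told apart, and the part of other cell types in the changes below was not tested.

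**Figure D2:**
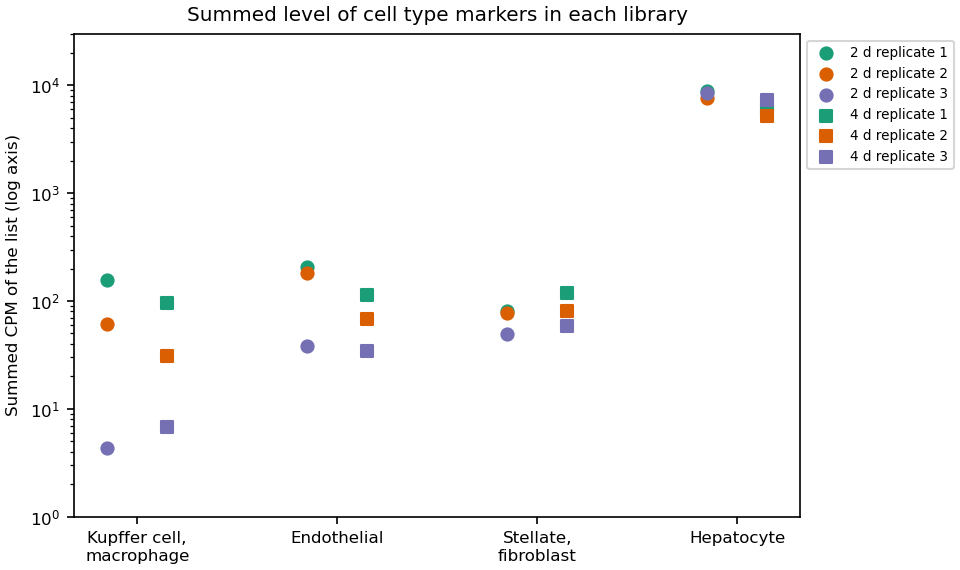
Summed level of the markers of 4 cell types in each of the 6 libraries, in CPM on a log axis, with circles for 2 days, squares for 4 days and 1 colour per replicate number. The hepatocyte sums lie between 5173 and 8922 CPM in every library, and the third replicate has the lowest Kupffer cell sum at both times (4.33 and 6.84 CPM).

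Many genes for secreted plasma proteins fell. Of the 46 plasma carriers, apolipoproteins and acute-phase proteins tested, 29 fell (against 2.02% of all genes tested), none rose and 17 did not pass, with a median log2 fold change of -1.98 over the list. Apoh, an apolipoprotein that binds phospholipids (GRCm38 chr11:108343354-108414396, plus strand), was measured at 448, 174 and 266 CPM at 2 days and at 17.7, 9.19 and 20.5 CPM at 4 days. The groups were far apart, and the level was 18.7-fold lower (log2 fold change -4.22 ± 0.37 (SE), n = 3 per group, edgeR FDR = 6.58e-07). Serpina3k, a protease inhibitor of plasma, went from 837, 793 and 676 CPM to 58.9, 36.8 and 34.2 CPM (FDR = 9.10e-07). Saa1, an acute-phase apolipoprotein, went from 1051, 846 and 688 CPM to 52.8, 28.8 and 28.8 CPM (FDR = 6.62e-05). Serpina6, which carries glucocorticoids in plasma, had a mean of 6.75 CPM at 2 days and no count at 4 days, which makes it at least 16.5-fold lower against a floor of 3 counts over the 3 libraries.

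The fall was uneven within the list. Alb, the most abundant plasma protein, was still at 452, 475 and 601 CPM at 4 days after 1126, 985 and 1158 CPM at 2 days, a fold of 2.14 (log2 fold change -1.10 ± 0.23, FDR = 0.00716). Its counts were high enough for a UMI of 6 bases to be drawn more than once, which sets a ceiling on the molecules seen per gene (the highest count of any gene was 4091), and with counts corrected for UMIs drawn more than once the log2 fold change was -1.65. Trf, which carries iron, did not pass the test, with 1256, 992 and 1061 CPM at 2 days and 1079, 802 and 1268 CPM at 4 days. At 2 days its level was near that of Alb, so the same ceiling applies to its counts. Ttr, a carrier of thyroid hormone, had all 3 libraries at 4 days below those at 2 days and did not pass either (log2 fold change -0.76 ± 0.28, FDR = 0.236).

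Complement and coagulation genes moved in the same direction. Of 43 tested, 21 fell, 1 rose and 21 did not pass, with a median log2 fold change of -1.44, or -1.22 with genes that had no count in 1 group set at their bound. The subunits of the membrane attack complex were among the leading genes: C9 was 60.4, 37.2 and 55.4 CPM at 2 days against 2.17, 2.80 and 0.977 CPM at 4 days, and C8a was 68.1, 68.2 and 40.2 CPM against 3.62, 1.6 and 1.47 CPM. C9 was thus 24.4-fold and C8a 25.1-fold lower. C8b, C8g and Hc, which encodes complement C5, also fell, and C6 had no count at 4 days (at least 4.74-fold lower, not called without 4 d replicate 1 or 2, with FDR 0.117 and 0.129). Among the coagulation genes Serpinc1, which encodes antithrombin, fell from 177, 110 and 93.9 CPM to 7.96, 7.19 and 4.39 CPM (19.1-fold, FDR = 1.30e-06). Plg, the precursor of plasmin, and F2, which encodes prothrombin, also fell, with log2 fold changes of -4.42 ± 0.53 and -1.52 ± 0.28. The 3 chains of fibrinogen did not behave alike: Fgg fell (log2 fold change -1.67 ± 0.34, FDR = 0.00498), whereas Fga and Fgb did not pass, with log2 fold changes of -0.30 ± 0.29 and 0.04 ± 0.26. The difference between the chains was not tested. The single riser was Mbl2, a lectin that starts the complement cascade, at 43.3, 50.6 and 66.2 CPM at 2 days and 188, 298 and 94.7 CPM at 4 days (log2 fold change 1.86 ± 0.38, FDR = 0.00488).

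Of the 21 major urinary proteins, pheromone carriers that share much of their sequence so that reads cannot always be assigned to 1 gene, 13 fell and 8 did not pass. Mup21 changed the most, from 561, 420 and 267 CPM to 10.1, 5.60 and 7.33 CPM (53.5-fold lower, FDR = 6.58e-07). Most others lost a smaller part of their level, with a median log2 fold change of -1.05 over the list. Their counts were in the range where UMIs repeat, and after correction for repeated UMIs 20 of the 21 passed, as they did by DESeq2 and in the fit of the 6 libraries alone, with Mup3 at -1.82 in place of -1.16. Without 4 d replicate 2, 6 passed.

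**Figure D3:**
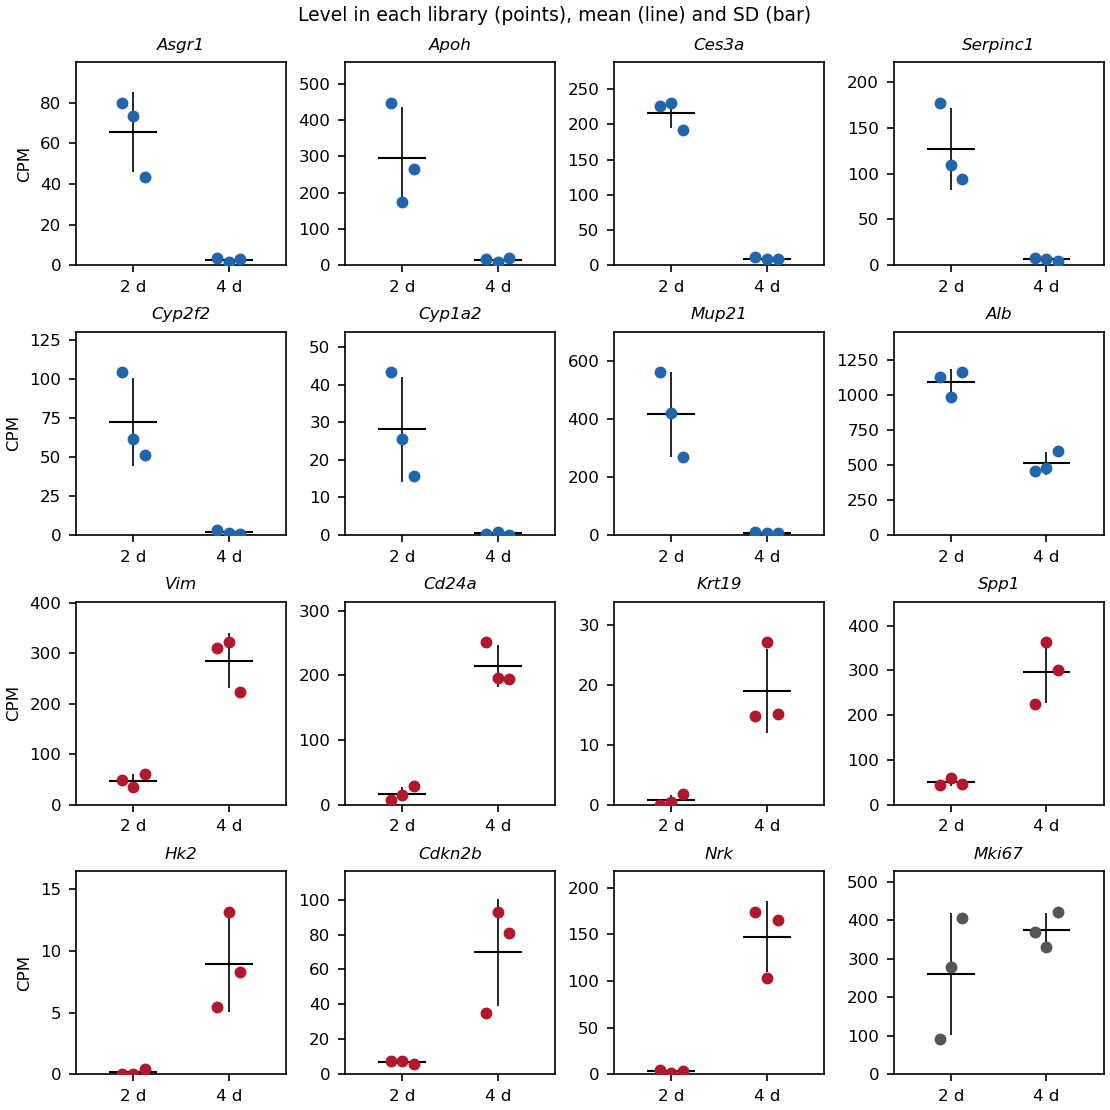
Level of 16 genes in each library at 2 and 4 days, in CPM on linear axes that start at 0, with the mean as a line and the SD as a bar. Blue panels fell, red panels rose and the grey panel (Mki67) did not pass the test, and in all panels but that of Mki67 the 3 libraries of 1 time lie above the 3 of the other.

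Of 46 cytochrome P450 genes of families 1 to 4 tested, 25 fell, none rose and 21 did not pass, with a median log2 fold change of -2.85, or -2.59 with genes that had no count in 1 group set at their bound. In the fit of the 6 libraries alone, 15 passed. These enzymes oxidize drugs, steroids and fatty acids. Cyp2f2 (chr7:27119909-27133660, plus strand), an enzyme of periportal hepatocytes, went from 104, 61.3 and 51.0 CPM to 3.25, 1.20 and 0.488 CPM, 40.2-fold lower (FDR = 9.10e-07). Cyp1a2, an enzyme of pericentral hepatocytes, went from 43.3, 25.5 and 15.6 CPM to 0.362, 0.799 and 0 CPM (FDR = 3.21e-06), and Cyp2e1, also pericentral, from 46.3, 17.6 and 12.1 CPM to 0.723, 0.799 and 0 CPM (FDR = 8.89e-05). Genes of both zones had thus fallen to a few counts per library or none by 4 days. Cyp2c67 and Cyp4a10 had no count at 4 days, at least 29.4-fold and 22.6-fold lower. Cyp3a11, the main inducible P450 of the liver, fell from 33.7, 9.65 and 6.49 CPM to 0, 1.20 and 0.977 CPM (FDR = 0.00182). Cyp7a1, the rate-limiting enzyme of bile acid synthesis, was not detectable at this depth, with no count in any of the 6 libraries. Cyp8b1, which sets the share of cholic acid, was at 6.29, 4.48 and 2.16 CPM at 2 days and 1.45, 0.799 and 1.47 CPM at 4 days, which did not pass (FDR = 0.112).

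Other metabolic groups lost fewer members in this step, but most of their summed level had gone before it. The list of the urea cycle and amino acid breakdown went from 43870 CPM in fresh hepatocytes to 2039 CPM at 2 days, and that of fatty acid oxidation from 17690 to 2259 CPM. The P450 list had also fallen by then, from 34760 to 1489 CPM. Of 43 phase II conjugation enzymes tested, 8 fell and 35 did not pass, led by the glucuronosyltransferase Ugt2a3 (log2 fold change -3.52 ± 0.56, FDR = 5.16e-04). Without 2 d replicate 1, 4 d replicate 1 or 4 d replicate 2, and in the fit of the 6 libraries alone, 4 of them passed. Of 50 genes of the urea cycle and amino acid breakdown, 12 fell and 38 did not pass, and without 4 d replicate 2, or from the 6 libraries alone, 6 passed. In the urea cycle itself Otc, the mitochondrial enzyme that makes citrulline, fell from 113, 84.4 and 72.7 CPM to 15.2, 7.19 and 20.5 CPM (FDR = 5.29e-04). Cps1 and Ass1, the enzymes of the steps before and after it, did not pass (log2 fold changes 0.19 ± 0.44 and 0.30 ± 0.44). The value of Cps1 was -0.38 without 4 d replicate 2, and the difference between these genes was not tested. Gnmt, which uses up methyl groups from methionine, fell 10.8-fold. Of 25 genes of bile acid synthesis and transport, 8 fell, 1 rose and 16 did not pass. The canalicular exporters Abcb11, for bile salts, and Abcb4, for phospholipids, fell, with log2 fold changes of -1.86 ± 0.48 and -2.02 ± 0.39, while Abcc4, an exporter of the basolateral membrane, rose from 7.04, 7.23 and 6.92 CPM to 45.2, 44.4 and 108 CPM (log2 fold change 3.20 ± 0.48, FDR = 1.93e-04). Abcb11 lost its call without 2 d replicate 1, 2 d replicate 3 or 4 d replicate 2 (FDR 0.126 to 0.216), and 3 members of the list fell without 4 d replicate 2 and 4 from the 6 libraries alone. Of 37 genes of fatty acid oxidation and ketogenesis, 3 fell and 34 did not pass, and the 3 were the fatty acid carrier Fabp1 and the P450 genes Cyp4a10 and Cyp4a14, not enzymes of the mitochondrial pathway. Cyp4a14 lost its call in 4 of the 6 fits without 1 library (FDR 0.145 to 0.201), and 1 member fell from the 6 libraries alone.

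**Figure D4:**
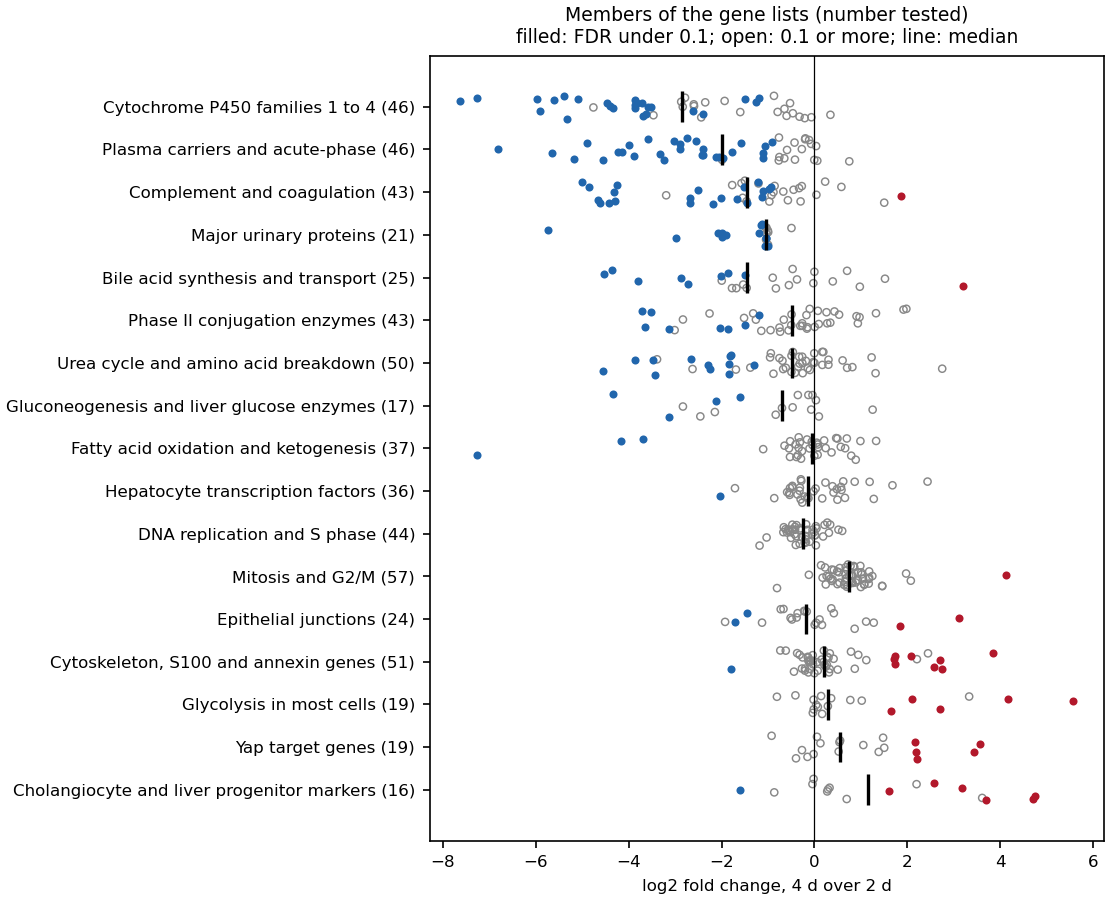
Fitted log2 fold change, 4 days over 2 days, of the tested members of 17 gene lists, 1 point per gene. Filled points passed an FDR of 0.1, open points did not, and a black line marks the median of each list, from -2.85 in the P450 list to 1.15 in the list of cholangiocyte and progenitor markers.

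Among the transcription factors that drive liver genes the share that fell was near that of all genes tested (2.02%), and its difference from the lists of liver products was not tested. Of 36 lineage factors and nuclear receptors tested, 1 passed, Ppara, the receptor that switches on fatty acid oxidation, which went from 27.0, 16.5 and 13.4 CPM to 3.98, 2.80 and 7.33 CPM (log2 fold change -2.03 ± 0.50, FDR = 0.0265). Without 2 d replicate 1, 4 d replicate 1 or 4 d replicate 2 it did not pass (FDR 0.117 to 0.187). Hnf4a, the central lineage factor, was at 152, 121 and 146 CPM at 2 days and at 193, 177 and 222 CPM at 4 days, so that all 3 later libraries lay above the earlier ones, and it did not pass (log2 fold change 0.50 ± 0.31, FDR = 0.661). Cebpa, Foxa2 and Prox1 did not pass either, with log2 fold changes of -0.28 ± 0.34, 0.17 ± 0.30 and 0.03 ± 0.40. The median log2 fold change of the list was -0.14.

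Sugar metabolism showed members moving in both directions. Of 17 genes of glucose output and liver-type sugar use, 4 fell and 13 did not pass. Among those that fell were the glucose transporter Slc2a2, the fructokinase Khk and Gckr, the inhibitor of glucokinase, and Slc2a2 went from 34.4, 41.7 and 30.7 CPM to 5.06, 4.40 and 2.44 CPM (log2 fold change -3.13 ± 0.38). Khk lost its call without 2 d replicate 1, 2 d replicate 2 or 4 d replicate 2 (FDR 0.108 to 0.161) and Gckr without 2 d replicate 2, 4 d replicate 1 or 4 d replicate 2 (FDR 0.166 to 0.220), so that 2 members fell without 2 d or 4 d replicate 2. Of 19 glycolytic genes that most tissues use, 5 rose and 14 did not pass. Hk2, a hexokinase of muscle and growing cells, was at 0, 0 and 0.433 CPM at 2 days, 1 count in all, and at 5.42, 13.2 and 8.30 CPM at 4 days (FDR = 2.71e-04). Hk1, the hexokinase of most other tissues, rose from 5.55, 5.51 and 5.19 CPM to 43.0, 26.0 and 37.6 CPM (log2 fold change 2.70 ± 0.50, FDR = 0.00183). Pfkp, the platelet form of phosphofructokinase, Ldhb, the heart form of lactate dehydrogenase, and Pkm, the pyruvate kinase of most adult tissues, also rose. The forms that the liver shares with other tissues did not pass: Pfkl, Ldha and Aldoa had log2 fold changes of 0.14 ± 0.57, 0.17 ± 0.26 and -0.03 ± 0.46. Pkm lost its call without 2 d replicate 1, 2 d replicate 2, 4 d replicate 1 or 4 d replicate 3 (FDR 0.116 to 0.190) and Ldhb without 2 d replicate 2 or 2 d replicate 3 (FDR 0.110 to 0.178), and without 2 d replicate 2, 3 members of the list passed. In lipid synthesis only the desaturases Scd1 and Scd2 passed of 38 genes tested, against 3.6% of all genes tested in either direction. The 2 are therefore described as single genes. Scd1, the main form of the liver, fell from 336, 548 and 412 CPM to 161, 205 and 202 CPM (FDR = 0.0635), and Scd2, which is low in the adult liver, rose from 2.96, 6.89 and 17.3 CPM to 38.3, 122 and 138 CPM (FDR = 0.00250). The call of Scd1 was lost in 5 of the 6 fits without 1 library (FDR 0.105 to 0.333) and after the correction for repeated UMIs.

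Some markers of bile duct and progenitor cells rose, and others of the best known did not pass. Of 16 tested, 6 rose (against 1.58% of all genes tested), 1 fell and 9 did not pass. The median log2 fold change was 1.15, or 0.82 with genes that had no count in 1 group set at their bound, and 6 members rose in each fit without 1 library. Krt19, a keratin of bile duct cells (chr11:100140810-100148665, minus strand), was at 0, 0.345 and 1.73 CPM at 2 days and at 14.8, 27.2 and 15.1 CPM at 4 days (log2 fold change 4.76 ± 0.70, FDR = 5.78e-04). Cd24a, a surface protein of progenitor and duct cells, rose from 7.04, 14.1 and 29 CPM to 252, 196 and 195 CPM (12.9-fold, FDR = 3.09e-05). Spp1, which encodes osteopontin, rose from 44.1, 58.2 and 46.7 CPM to 225, 363 and 300 CPM (5.95-fold, FDR = 6.17e-04). Prom1, which encodes the progenitor marker CD133, had 1 count in all at 2 days and stood at 6.87, 5.20 and 2.44 CPM at 4 days (FDR = 0.00253). Tspan8 and the transcription factor Sox4 also rose. Sox9, a duct lineage factor, differed by less than the spread, with a log2 fold change of -0.04 ± 0.44, and Krt7 and Afp, which encodes alpha-fetoprotein, did not pass. The exception was Ly6d, a surface marker of some progenitor states, which fell (log2 fold change -1.59 ± 0.48, FDR = 0.0940) and kept that call in 2 of the 6 fits without 1 library (FDR 0.155 to 0.659 in the others). Krt8 and Krt18, the keratins that hepatocytes already carry, did not pass.

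The cytoskeleton changed in selected members. Of 51 intermediate filament, actin-binding, S100 and annexin genes tested, 8 rose, 1 fell and 42 did not pass. Vim, the intermediate filament of mesenchymal and dedifferentiating cells (chr2:13573927-13582826, plus strand), was at 48.5, 34.8 and 59.7 CPM at 2 days and at 310, 322 and 223 CPM at 4 days (5.98-fold, log2 fold change 2.58 ± 0.37, FDR = 1.36e-04). Marcks, which links actin to the membrane, rose from 8.89, 8.27 and 3.46 CPM to 82.1, 140 and 79.1 CPM, and Tubb2b, a tubulin of developing neurons, rose 6.49-fold. Marcksl1, Cnn2, Tmsb4x, Lgals3 and Lgals1 rose as well, and S100a16 fell. Without 2 d replicate 2, 4 members rose, and Tmsb4x, which binds actin monomers, lost its call without 2 d replicate 1, 2 d replicate 2 or 4 d replicate 2 (FDR 0.176 to 0.244). Lgals1, Lgals3 and S100a16 lost theirs in 3, 4 and 2 of the 6 fits without 1 library, Marcksl1 without 2 d replicate 2 (FDR = 0.135) and Cnn2 without 4 d replicate 2 (FDR = 0.105). Of 5 keratins tested, Krt19 alone passed. Of 14 transcription factors and cadherins of the epithelial-mesenchymal transition, 9 had too few counts to be tested. None of the 5 tested passed (1 of 5 at an unadjusted p under 0.05, 0 by DESeq2). Cdh1, which encodes E-cadherin, was at 595, 686 and 689 CPM at 2 days and 467, 385 and 559 CPM at 4 days (FDR = 0.6).

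Junction and matrix genes were divided. Of 24 junction genes tested, Cldn6, a claudin of embryonic epithelia, rose from 1.11, 1.38 and 0.865 CPM to 8.68, 9.99 and 12.2 CPM (FDR = 0.00142), and Cldn2, a claudin that forms cation pores, rose from 109, 126 and 106 CPM to 536, 298 and 392 CPM (FDR = 0.00162). Cldn1 and Dsc2 fell, but Cldn1 passed in none of the 6 fits without 1 library (FDR 0.135 to 0.261) and Dsc2 in 2 (FDR 0.172 to 0.322 in the others). Cldn3 and Ocln did not pass. Of 29 laminins, collagens and integrins, Thbs1, a matrix glycoprotein that binds TGF-beta, rose from 17.4, 15.5 and 32.5 CPM to 93.3, 120 and 93.3 CPM (FDR = 6.22e-04), Tnc rose and Col18a1 fell, both with calls that were lost in 5 of the 6 fits without 1 library, and Lamb1, at 0 to 2.17 CPM in all 6 libraries, did not pass.

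Signalling targets moved only in part. Of 19 genes tested from a published signature of 22 Yap targets, 5 rose and 14 did not pass, with a median log2 fold change of 0.55. Myof, a membrane repair protein, rose from 3.70, 6.89 and 27.3 CPM to 98.7, 184 and 120 CPM (10.8-fold, FDR = 3.98e-04), and Axl, a receptor tyrosine kinase, rose from 9.26, 5.86 and 3.03 CPM to 65.8, 79.9 and 71.8 CPM (11.8-fold, FDR = 5.29e-04). Ptpn14, Igfbp3 and Fjx1 also rose, Fjx1 not without 2 d replicate 1, 2 d replicate 2 or 4 d replicate 2 (FDR 0.169 to 0.272). The best known targets, Ccn1 and Ccn2, were carried by a single library: Ccn1 was at 45.5, 50.3 and 106 CPM at 2 days and at 57.9, 454 and 51.3 CPM at 4 days, and without 4 d replicate 2 its log2 fold change was -0.30 in place of 1.48. Tead2, which encodes a DNA-binding partner of Yap and is not in the signature, was called higher (log2 fold change 2.43 ± 0.52, FDR = 0.00745). Promoters were read from RefSeq (GRCm38.p6) as 1 window of 300 bases around the first listed start site of each gene, with 250 bases before it, for 27025 genes, and both strands were searched. The letters GGAATG, which TEAD factors bind, were in 7 of the 15 available windows of the signature (46.7%), against 14.6% of all windows, 11.9% of those of the genes tested and 17.9% of those of genes called higher. The share was 33.3% (12 of 36 windows) in the complement and coagulation list, many of whose members fell, so a high share was not particular to the signature. Among the members that rose, the letters were found in the windows of Axl and Ptpn14, and these matches are shown 5′ to 3′ with the searched letters in capitals.
Axl, chr7:25788951-25788976, minus strand: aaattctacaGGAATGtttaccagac
Ptpn14, chr1:189728112-189728137, minus strand: gggcgggccaGGAATGcgtccgggga
The match begins at position -233 from the start site in Axl and at -141 in Ptpn14, where it lies on the strand opposite to the gene. A match describes the letters only, and binding was not measured. Ptpn14, a phosphatase that binds Yap, was at 4.81, 2.41 and 2.60 CPM at 2 days and at 12.7, 15.6 and 16.6 CPM at 4 days (4.48-fold higher, FDR = 0.00297), with no overlap between the times.

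In other pathways few or no genes passed, and 3.6% of all genes tested passed in either direction. None of 25 BMP and TGF-beta genes, 22 AP-1 and early-response genes, 22 genes of the unfolded protein response and 23 interferon-stimulated genes passed edgeR's test. At an unadjusted p under 0.05 there were 3, 1, 1 and 1 of them, and DESeq2 passed 1, 0, 0 and 0. Bmp4 and Bmp7, the ligands, reached at most 6.39 and 1.3 CPM. Id1 and Id2, targets of BMP signalling, were close at both times, Id1 with 168, 95.4 and 146 CPM and then 149, 133 and 169 CPM. Of 8 Notch pathway genes, the ligand Jag1 and the feedback gene Nrarp rose, but Jag1 lost its call without 2 d or 4 d replicate 2 (FDR 0.121 and 0.180), and Nrarp in 5 of the 6 fits without 1 library (FDR 0.121 to 0.348). Of the growth hormone and IGF system, Igfbp2 fell 20.7-fold, from 44.4, 40.7 and 27.3 CPM to 2.53, 1.6 and 0.977 CPM, Igf1 fell, though not without 2 d replicate 1 (FDR = 0.287), and Igfbp3 rose, 3 of 12 tested in all. Of 19 chemokine and NF-kB genes Tnfaip3 and Il33 rose, of 14 genes of matrix breakdown Plat and Serpinb6b, and of 21 genes of EGF signalling the ERK phosphatase Dusp4, each with a call that was lost in 3 or 4 of the 6 fits without 1 library (FDR up to 0.542). Of 19 NRF2 and metallothionein genes Srxn1, which repairs peroxiredoxins, fell, and its call was lost without 2 d replicate 1, 2 d replicate 2 or 4 d replicate 2 (FDR 0.140 to 0.161). Of 10 intestinal genes tested, Tspan8 rose and Pigr, the transporter of IgA, fell. Cdx2, the intestinal lineage factor, had no count in the 6 libraries, and S100a7a was too low to be tested.

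Few DNA replication and mitotic genes passed the test in this interval. None of 44 DNA replication genes passed (1 at an unadjusted p under 0.05, 0 by DESeq2), and of 57 mitotic genes 1 did, Pimreg, which rose from 0.370, 0 and 0.865 CPM to 16.6, 3.60 and 2.44 CPM and lost its call without 2 d replicate 1, 2 d replicate 2 or 4 d replicate 1 (FDR 0.186 to 0.249). Mki67, the usual marker of cycling cells, was at 91.8, 279 and 407 CPM at 2 days and at 369, 330 and 422 CPM at 4 days. The 2 day libraries covered a wide range, 2 of the 3 libraries of 4 days lay within it, and the difference was within the spread (log2 fold change 0.53 ± 0.50, FDR = 0.810). The summed mitotic genes ran from 1431 to 3591 CPM at 2 days and from 2989 to 3969 CPM at 4 days, with the lowest 2 day value in replicate 1. The median log2 fold change was 0.75 over the mitotic list, with 55 of 57 above 0, and -0.24 over the replication list, and without 2 d replicate 3, the library with the highest mitotic level of that time, 5 mitotic genes passed. From 1 to 2 days, in the same fit, 50 of the 57 mitotic and 30 of the 44 replication genes had risen. Of 13 D cyclins and CDK inhibitors tested, 3 passed: Ccnd2 and Ccnd1, which encode D cyclins, rose with log2 fold changes of 2.31 ± 0.39 and 1.59 ± 0.40, and so did Cdkn2b, which encodes the inhibitor p15 of their kinases, from 7.78, 7.58 and 5.63 CPM to 35.1, 93.1 and 81.1 CPM (9.85-fold, FDR = 1.31e-04). Ccnd1 lost its call without 2 d replicate 1 or 4 d replicate 2 (FDR 0.208 and 0.244). Of 24 p53 targets, Pmaip1, a BH3-only death gene, was the only one to pass, from 0.741, 0.345 and 2.16 CPM to 11.9, 12 and 12.7 CPM (FDR = 2.43e-04). Over all genes tested, 3.6% passed in either direction.

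The genes with the smallest p-values among those called higher included several outside these lists. Nrk, a kinase known from the placenta (chrX:138914430-139010532, plus strand), led them, at 4.81, 1.03 and 3.89 CPM at 2 days and 174, 104 and 165 CPM at 4 days (45.2-fold, FDR = 2.26e-06). Thbd, which encodes thrombomodulin, an anticoagulant receptor best known from endothelium, rose from 4.44, 4.13 and 3.03 CPM to 35.4, 94.3 and 70.3 CPM, while the summed endothelial markers were 34.7 to 112 CPM at 4 days after 38.1 to 204 CPM. Clic6, a chloride channel protein of secretory epithelia, had 1 count in all at 2 days and stood at 14.8, 16 and 15.1 CPM at 4 days (FDR = 2.16e-05). Epha4, a receptor for ephrins, Map1b and Dpysl3, which organize microtubules in growing neurons, Cntnap5a, a cell adhesion protein of neurons, Agpat4, an enzyme of phospholipid synthesis, and Wfdc2, a secreted protease inhibitor of epithelia, completed the group, with log2 fold changes between 3.51 and 4.13. Among the leading fallers, beside those described, were the carboxylesterases Ces3a, Ces1c and Ces3b, the asialoglycoprotein receptor subunit Asgr1, which went from 80.0, 73.4 and 43.3 CPM to 3.62, 1.6 and 2.93 CPM, the murinoglobulin Mug1 and Serpinf1, a secreted inhibitor of vessel growth.

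The levels over the whole time course placed the interval. The genes called lower had a median level of 634 CPM in fresh hepatocytes, 102 CPM at 1 day, 23.5 CPM at 2 days, 2.00 CPM at 4 days and 0.408 CPM at 7 days. The genes called higher had medians of 0.729, 0.556, 1.62, 11.9 and 31.6 CPM at the same times and 43.4 CPM at 14 days. The steps from 1 to 2 and from 4 to 7 days share the 2 day or the 4 day libraries with this comparison, so their values are given only side by side: 314 genes were called higher and 231 lower from 1 to 2 days, and 99 higher and 116 lower from 4 to 7 days. Alb, at a mean of 4163 CPM in fresh cells, 1090 CPM at 2 days and 509 CPM at 4 days, was at 403 CPM at 7 days and 100.3 CPM at 14 days.

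**Figure D5:**
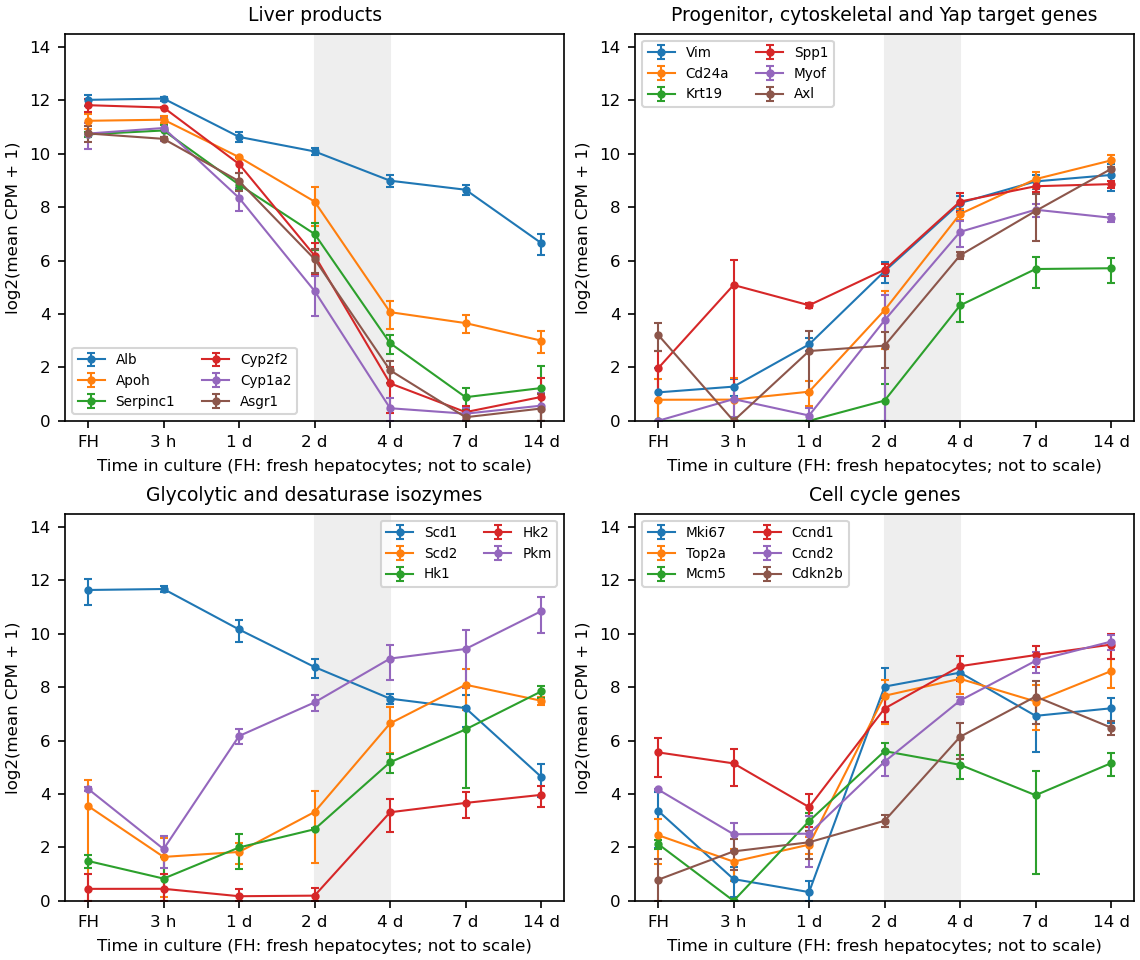
Mean level over the time course of fresh hepatocytes (FH) and cells at 3 h to 14 days, n = 3 libraries each, as log2(mean CPM + 1) with bars for 1 SD, and with the interval from 2 to 4 days shaded. Liver products fall through the shaded interval, Krt19 first stands clear of 0 at 4 days (19.1 CPM) and Mki67 comes up from 1 to 2 days, before the interval.

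Whether the change from 2 to 4 days differed from that of the step before was tested gene by gene as (4 d - 2 d) - (2 d - 1 d). The test found 89 genes (0.715% of those tested), 12 with a difference above 0 and 77 below 0, and 64 of the 77 had risen from 1 to 2 days. The 2 day libraries enter both steps with opposite sign, so an error in them moves this difference. The step before lasted 1 day and this one 2 days, so the test compares whole steps and not rates per day. The loss of several liver products was larger over the later, longer step: the difference was -4.56 ± 0.70 for Mup21 (FDR = 0.00200), -3.13 ± 0.57 for Serpina3k and -2.98 ± 0.53 for Ces3a on the log2 scale. With counts corrected for repeated UMIs, the difference of Serpina3k was -2.74 ± 0.71 and did not pass (FDR = 0.118). Without 2 d replicate 3 the test found 1 gene above 0 and 27 below. Fbln2, a matrix protein that rose in both steps, rose less in the later one (difference -4.01 ± 0.53, FDR = 0.00115), from 1.40 CPM at 1 day to 84.2 CPM at 2 days and 299 CPM at 4 days. The comparison with the following step, (7 d - 4 d) - (4 d - 2 d), found 17 genes (0.137%), and none without 4 d replicate 1.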

How the data were processed

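RNA of the 6 libraries was measured by CEL-seq2, which tags the 3' end of each transcript with a unique molecular identifier (UMI) of 6 bases, which puts a ceiling on the molecules told apart per gene and library. Per the labels, the authors demultiplexed with bcl2fastq 2.20, aligned to GRCm38 with Bowtie2 2.3.1 and counted with HTSeq 0.6.0, and they deposited raw UMI counts for 46078 Ensembl identifiers, of which 45143 matched a symbol of the GENCODE annotation. Counts were tested with edgeR 4.0.16 in R 4.3.3 (TMM scaling, filterByExpr with a minimum count of 10 and a minimum total of 15, quasi-likelihood F-test, Benjamini-Hochberg adjustment). All 21 libraries of the 7 hepatocyte groups shared 1 fit, which left 14 residual degrees of freedom. SE is the absolute log2 fold change divided by the square root of F.

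The genes and the 39 lists were chosen with earlier results of these data known. Named were the 15 called genes of smallest p in each direction, genes the study names, up to 6 members of smallest p per list and 5 step-difference genes per direction. Other names, and members named to say what a list did, were chosen after their values were seen. The fold and FDR thresholds are those of the study. Floors cover counting error only, whereas SE also carries the spread between the libraries of the fit.

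On simulated counts with 199 changed genes the 4 d against 2 d test recovered 191 (91.9% of those changed 8-fold and all changed 16-fold). It also called 5 unchanged genes. The changed genes were drawn from those with a mean of 5 or more counts at 2 days. The simulation thus does not cover smaller folds or rarer genes, such as many of those called higher (median 1.62 CPM at 2 days). Its spread followed the fitted trend over level, with no spread particular to a gene and no UMI ceiling. Recovery and false calls can therefore look better in it than in the data. Alternatives were RLE scaling, DESeq2 1.42.0, other filters and thresholds, the 6 libraries alone, a block on the replicate number, counts corrected for UMIs drawn more than once, and leaving out each library. Fits without 14 d replicate 3 or with only the 12 libraries of 1 to 7 days were added after seeing the data. Some genes that these rules name are not reported here. The other 28 libraries of the series were not used.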

Additional observations from a re-analysis of the deposited data

Results flagged for a closer look

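For 16 of the named genes the change from 2 to 4 days differed, by edgeR's test of the difference at an FDR under 0.1, from that of a neighbouring step. All differences below are on the log2 scale and share the 2 day or 4 day libraries with the step itself, and no explanation was tested. The neighbouring steps also differ in length from this one, and no rate per day was tested.

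Against the step from 1 to 2 days, the fall over the later, longer step was larger for several liver products. Among those picked, the difference was -4.56 for Mup21, -3.13 for Serpina3k and -2.98 for Ces3a. Apoh (-2.56, FDR = 0.0288) and Ces1c (-2.44, FDR = 0.0239) passed the same edgeR test with larger p. That of Serpina3k lost its call with counts corrected for repeated UMIs (FDR = 0.118). Thbd, the anticoagulant receptor thrombomodulin, changed by 0.46 from 1 to 2 days and 4.08 from 2 to 4 days (difference 3.62, FDR = 0.0694). Wfdc2, an epithelial protease inhibitor, changed by -0.54 and then 3.51 (difference 4.05, FDR = 0.0690), and Ptpn14, a phosphatase that binds Yap, by -0.92 and then 2.16 (difference 3.09, FDR = 0.0854). Mbl2, the complement lectin, changed by -0.86 and then 1.86 (difference 2.72, FDR = 0.0887). Fbln2 had the opposite order, with 5.84 before and 1.83 after (difference -4.01, FDR = 0.00115). Without 1 library the differences of Thbd, Mbl2 and Ptpn14 lost their calls in 5 of 6 fits and that of Wfdc2 in 4.

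Against the step from 4 to 7 days, 5 genes that had fallen from 2 to 4 days had log2 fold changes between -0.43 and 4.06 from 4 to 7 days: the difference was 3.79 for Apoh (15.8 CPM at 4 days and 11.7 CPM at 7 days), 5.01 for Vtn, which encodes vitronectin, 3.95 for Agt, which encodes angiotensinogen, 7.15 for Afm, which encodes the vitamin E carrier afamin and whose value rests on 3 counts at 4 days, and 6.48 for Lce1g, a gene of the skin barrier. The fall of Lce1g from 2 to 4 days was itself lost in 4 of 6 fits without 1 library (FDR 0.148 to 0.276). The rises of Nrk and Thbd were smaller in the following step (-3.61 and -3.35). Mup3 and Mup13 fell more from 4 to 7 days than over the shorter step from 2 to 4 days, with differences of -2.61 and -2.32. Their counts were in the range where UMIs repeat at 2 days. None of these 9 differences kept its call in every fit without 1 library, and none was found without 4 d replicate 1.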

How the results depend on the processing

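Most counts of genes kept their size, and the counts of step differences moved most. At a log2 fold change over 1, 246 genes were called lower in place of 158. DESeq2 found 29 step differences above 0 against the earlier step in place of 12, and 17 above and 38 below against the later step in place of 7 and 10. With no filter on low counts 296 genes passed as higher in place of 197, with 42 above and 156 below against the earlier step and 28 and 59 against the later, and with 0.5 CPM in 1 library the numbers were 300, 42, 156, 29 and 64. Correction for repeated UMIs left 2 below against the later step, and the 12 libraries of 1 to 7 days, a fit chosen after seeing the data, gave 3 and 49 against the earlier and 0 and 0 against the later. Without 14 d replicate 3, also added afterwards, 9 were above 0 against the earlier step. Leaving out 1 library gave 86 to 135 called higher, 121 to 176 called lower, 104 to 175 passing as higher, 154 to 247 passing as lower, 1 to 8 and 27 to 80 step differences above and below against the earlier step, and 0 to 6 and 0 to 7 against the later. Of the 293 called genes, DESeq2 shared 290, the 6 libraries alone 206 and the UMI correction 285. Direction turned only for genes that did not pass the test. Without 1 library the log2 fold changes ran, for Fgb from -0.21 to 0.21, for Sox9 from -0.34 to 0.27, for Trf from -0.23 to 0.088, for Id1 from -0.065 to 0.32, for Lamb1 from -0.58 to 1.00, for Aldoa from -0.49 to 0.22, for Prox1 from -0.24 to 0.27, for Ccn1 from -0.30 to 1.97, for Ccn2 from -0.23 to 1.43, for Cps1 from -0.38 to 0.47, for Krt18 from -0.27 to 0.036 and for Foxa2 from -0.0022 to 0.32. Turned also were Prox1 (-0.015) with the replicate block and Prox1 (-0.0061) and Sox9 (0.037) with the block in the 6 libraries alone. The sign of Cyp7a1 changed with the replicate block too (0.040), but with no count in the 6 libraries that gene has no direction. Same-numbered libraries correlated by 0.421, 0.0516 and 0.223 in their deviations from the group means, and not every library correlated best with its own number. Deviations from the mean of so few libraries depend on each other. These values therefore cannot decide whether same-numbered libraries share an animal or a culture. The replicate block called 137 higher and 156 lower, and 104 and 114 in the 6 libraries alone. The causes were not tested. Genes under the floor of 1.03 to 1.47 CPM cannot be compared at this depth, and genes near the UMI ceiling have folds that are too small.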

Other observations

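Gene families outside the lists were collected after their values were seen, so their counts are descriptions. Of 14 carboxylesterases tested, 9 fell, with a median log2 fold change of -3.32, or -2.14 with genes at 0 set at their bound. These enzymes split ester drugs and lipids. Ces2a, for example, went from 20.7, 23.8 and 22.5 CPM to 0.362, 1.20 and 1.95 CPM. Of 15 genes of the Serpina family of plasma protease inhibitors, 12 fell, and the clustered copies lost unequal parts of their level: Serpina3c had a log2 fold change of -5.12 ± 0.57 and Serpina1a one of -1.05 ± 0.32. Serpina1a, at 826, 764 and 829 CPM at 2 days, was in the range where UMIs repeat, which makes its fold too small. All 3 murinoglobulins fell. Of 21 retinol and hydroxysteroid dehydrogenases 6 fell, among them Hsd11b1, which reactivates glucocorticoids, from 60.7, 66.1 and 48.9 CPM to 4.70, 8.79 and 5.86 CPM.

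Some members of small groups known from neurons and developing tissues rose, and outside the Bex and Tceal genes most members did not pass. Of 6 Bex and Tceal genes tested, 4 rose: Bex3 went from 36.3, 47.2 and 40.7 CPM to 297, 144 and 226 CPM, Bex2 had a log2 fold change of 3.36 ± 0.73, and Bex1 and Tceal5 had no count at 2 days (at least 9.18-fold and 3.58-fold higher). Of 12 ephrins and Eph receptors 3 rose, Epha4, Efnb2 and Efna4, and Efnb2 stood at 140, 88.3 and 124 CPM after 21.8, 13.1 and 45.9 CPM. Of 24 genes of transport in the primary cilium 6 rose (Dync2li1, Ttc21b, Dzip1, Ift57, Dzip1l and Tulp3), most of them at a few counts per library, with a list median of 0.49. Of 14 imprinted genes tested Ndn, Meg3 and Peg3 rose, with FDR between 0.0626 and 0.0807. Without 1 library the calls of Dzip1, Ift57 and Ndn were lost in 4 of 6 fits, those of Dzip1l, Tceal5, Meg3, Peg3 and Serpina1a in 5, that of Ttc21b in 2 and that of Tulp3 in all 6 (FDR up to 0.436).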
